A study of Homo sapiens with 18 samples.

Results

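The 32 genes described here encode enzymes of cholesterol and fatty acid synthesis, their main transcriptional regulators and 1 sterol carrier. They were taken by name from a list of sterol and fatty acid synthesis genes, drawn up with earlier results of these data known. All 32 were among the 55765 gene symbols of the expression table and among the 16154 genes tested. They were divided into 6 roles: 4 regulators, 6 early mevalonate enzymes, 5 isoprenoid and squalene enzymes, 9 post-squalene sterol enzymes, 1 sterol carrier and 7 fatty acid enzymes.

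G401 is an established human malignant rhabdoid tumour line, and its poly(A) RNA was sequenced from 18 samples in 6 groups of 3 biological replicates. The control line, called WT, carried intact RB1 and had been edited at the AAVS1 safe harbour site. Clones E1 and F2 had both RB1 alleles disrupted by CRISPR/Cas9, and each is a single clone of the same parental line. Every line received either 10 µM tazemetostat, an inhibitor of the EZH2 histone methyltransferase, or the same volume of its solvent DMSO for 11 days. Whether WT is also a single clone, and whether replicates came from separate cultures, was not stated, so p-values measure the spread between these samples, which may in part be technical.

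Sterol synthesis starts from acetyl-CoA, which the mevalonate pathway turns into isoprenoid units, then squalene, lanosterol and cholesterol. SREBP-2, encoded by SREBF2, drives transcription of most enzymes of that route, and SREBP-1, encoded by SREBF1, acts more on fatty acid genes. When sterols are plentiful, the INSIG proteins hold SREBP precursors in the endoplasmic reticulum. When sterols fall, the precursors move to the Golgi, where they are cut to release the active factors. SREBP sites in promoters often lie near CCAAT boxes, which NF-Y binds.

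Promoters of 5 genes are shown because 3 of them had the largest rises with drug in WT (SC5D, STARD4 and MSMO1), 1 held the core of the classical sterol element (SREBF2) and 1 moved in opposite directions in different lines (HMGCS1). The sequences are from RefSeq on GRCh38.p14, whereas the expression values were made on hg19 and carry no coordinates. Each is 250 bases long, ends at the base before the annotated start and is written 5′ to 3′ on the strand of the gene. Capitals mark CCAAT or its reverse complement ATTGG, the sterol element core TCACNCCAC, and the E-box CACGTG. The intervals are chr22:41832855-41833104 on the plus strand for SREBF2, chr5:43313413-43313662 on the minus strand for HMGCS1, chr4:165327419-165327668 on the plus strand for MSMO1, chr11:121292521-121292770 on the plus strand for SC5D and chr5:111512536-111512785 on the minus strand for STARD4.
SREBF2: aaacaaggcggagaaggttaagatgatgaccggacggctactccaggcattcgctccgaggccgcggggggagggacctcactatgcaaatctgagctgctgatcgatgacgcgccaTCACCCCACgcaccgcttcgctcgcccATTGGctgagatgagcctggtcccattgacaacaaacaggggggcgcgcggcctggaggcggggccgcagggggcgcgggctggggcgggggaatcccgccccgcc
HMGCS1: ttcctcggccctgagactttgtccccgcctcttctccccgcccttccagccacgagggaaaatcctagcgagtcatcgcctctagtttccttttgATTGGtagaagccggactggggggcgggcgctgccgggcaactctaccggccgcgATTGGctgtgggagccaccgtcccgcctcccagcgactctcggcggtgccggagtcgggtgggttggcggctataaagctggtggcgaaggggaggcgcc
MSMO1: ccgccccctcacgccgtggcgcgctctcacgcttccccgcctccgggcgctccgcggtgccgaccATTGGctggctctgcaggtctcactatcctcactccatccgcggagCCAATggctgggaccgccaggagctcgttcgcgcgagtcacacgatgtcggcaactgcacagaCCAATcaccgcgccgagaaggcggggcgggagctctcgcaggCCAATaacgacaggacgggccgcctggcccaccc
SC5D: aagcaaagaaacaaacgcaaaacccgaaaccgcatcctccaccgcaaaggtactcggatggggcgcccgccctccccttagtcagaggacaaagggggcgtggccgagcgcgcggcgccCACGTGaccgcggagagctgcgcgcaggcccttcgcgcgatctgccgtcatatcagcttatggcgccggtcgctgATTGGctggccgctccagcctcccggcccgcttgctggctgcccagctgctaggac
STARD4: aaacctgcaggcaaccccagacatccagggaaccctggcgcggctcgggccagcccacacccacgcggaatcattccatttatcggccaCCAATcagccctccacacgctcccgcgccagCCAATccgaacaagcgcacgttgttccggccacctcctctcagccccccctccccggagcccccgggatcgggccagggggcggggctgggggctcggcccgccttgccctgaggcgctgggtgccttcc

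Windows of 300 bases, from 250 before to 50 after a start, were available for 28 of the 32 genes. The other 4 were ACAT2, FDFT1, SQLE and FASN. Both strands were searched. Genes with several annotated starts had several windows, 35116 in all for 27305 genes. A gene was counted if any of its windows held the motif, which favours genes with more starts. Where a gene had several starts, the stretch printed above is that of the most upstream. CCAAT lay in the windows of 21 of the 28, against 39.7% of 27305 genes with a window. MSMO1 held 4 copies in the stretch printed above, HMGCS1 and STARD4 held 2 each, and SREBF2 and SC5D held 1 each. The sterol element core TCACNCCAC was in the SREBF2 window alone among the 28, 133 bases before the start, and in 1.39% of all genes. CACGTG was present in INSIG1, LSS and SC5D, against 8.77% of genes. These matches describe letters in a window and were not tested as sites.

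Library depth ran from 25709489 to 39314860 reads, and the size factors from 0.812 to 1.1449. SMARCB1, whose loss defines rhabdoid tumours, had 0 reads in all 18 libraries. RB1 read between 2300 and 2828 normalised counts in WT libraries and between 505 and 1045 in the clones. Markers of blood (PTPRC, CD3E) and of hepatocytes (ALB) reached at most 9 reads in any library. The endothelial marker CDH5 reached 29 reads and was above 3 in 9 libraries. Libraries of a group differed by a chi-square per gene of 2.48 to 69.74, so none was taken as a repeat of another. The highest value was that of E1 DMSO replicates 2 and 3. The other E1 DMSO pairs had 36.91 (1 and 2) and 33.4 (1 and 3), both above every pair of the other groups. Over all genes, replicate 3 was thus not the only E1 DMSO library apart. Fewer results are given below without replicate 2 than without replicate 3. E1 DMSO replicate 3 stood apart in several of the genes below, so results that rest on it are also given without it.

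In the untreated control line the pathway was well expressed. Levels were compared between genes as normalised counts per kilobase of exon, with exon lengths from GENCODE v29 in place of the authors' annotation, which was not stated. SCD, the desaturase that makes monounsaturated fatty acids, had the highest level, 7351 ± 420 per kilobase (SD, n = 3). ACLY, which supplies cytosolic acetyl-CoA from citrate, followed with 2819 ± 119, and FDPS, which makes farnesyl diphosphate, with 1690 ± 70.0. FASN at 1252 ± 42.4, HMGCS1 at 1139 ± 76.0 and FDFT1 at 1088 ± 59.6 came next, and HMGCS1 overlapped with both FASN and FDFT1 within their SD. SREBF2 (1028 ± 12.6) and FADS1 (1023 ± 45.9) could not be separated from each other or from FDFT1 either. At the lower end were MVK with 89.2 ± 5.70, HSD17B7 with 54.6 ± 3.21 and CYP51A1 with 16.4 ± 2.61. The level of CYP51A1 is uncertain, since 83.2% of its exon bases overlap other annotated genes and it has 3 pseudogene copies. ACAT2 (52.3% overlapped) and GGPS1 (41.0%) are uncertain for the first reason, and FDPS (8 pseudogenes) and HSD17B7 (2) for the other.

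Tazemetostat against DMSO asks how EZH2 inhibition changed the pathway within each line. Of the 9 post-squalene sterol enzymes, 7 rose in WT and in E1 and 6 in F2, and 1 fell, in WT. The sterol carrier rose in each line, and fatty acid genes were split. In WT 18 genes rose and 7 fell at an adjusted p under 0.05 (limma, Benjamini-Hochberg over all genes tested), where 34.8% of all tested genes rose and 29.4% fell. E1 had 15 higher and 4 lower, against backgrounds of 27.1% and 19.7%. F2 had 14 higher and 3 lower, against 29% and 23.2%. In each line more of the 32 rose, and fewer fell, than these backgrounds, a comparison of counts with no test. Where 3 values stand together below, they follow the order WT, E1, F2. The median log2 change of the 32 was 0.30, 0.21 and 0.13, beside 0.03, 0.02 and 0.02 over all tested genes. In bulk RNA, a change in the share of cells with a transcript and a change in its amount per cell cannot be told apart.

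Most changes were small. At least 2-fold rises were seen for SC5D in all 3 lines and for STARD4 in E1, against 14.5%, 11.3% and 13.3% of all tested genes. No member fell 2-fold, against 6.77%, 3.78% and 3.71%. In every line 12 of the 32 rose, where 19.1% of all tested genes did so: SREBF2, INSIG2, IDI1, SQLE, CYP51A1, TM7SF2, MSMO1, NSDHL, SC5D, DHCR7, STARD4 and SCD. ACACA and FADS1 fell in every line, 2 of 32 against 11.1% of tested genes. The split between higher and lower depended on the scaling. With upper quartile scaling, which moved the median of all genes by -0.15, -0.15 and -0.19, it was 14 to 8, 10 to 7 and 9 to 6. The share of called members that rose was then 63.6%, 58.8% and 60.0%, against 41.6%, 37.0% and 35.6% of all genes called. Scaling to the same total moved the median of all genes by -0.15 in WT and gave 15 to 8, 13 to 6 and 14 to 4. Here 65.2%, 68.4% and 77.8% of called members rose, against 41.7%, 48.3% and 51.6% of all genes called. These shares were compared with no test. Under upper quartile scaling 7 of the 12 rose in every line (SQLE, MSMO1, NSDHL, SC5D, DHCR7, STARD4 and SCD), and 10 did under the same total, where CYP51A1 and TM7SF2 were lost. ACACA and FADS1 fell in every line under both. CYP51A1 was also lost from the 12 with edgeR, with DESeq2 and without filter on low values. With only the groups of a contrast fitted, CYP51A1 and TM7SF2 were lost, and ACACA no longer passed in E1 (adjusted p = 0.055).

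**Figure D1:**
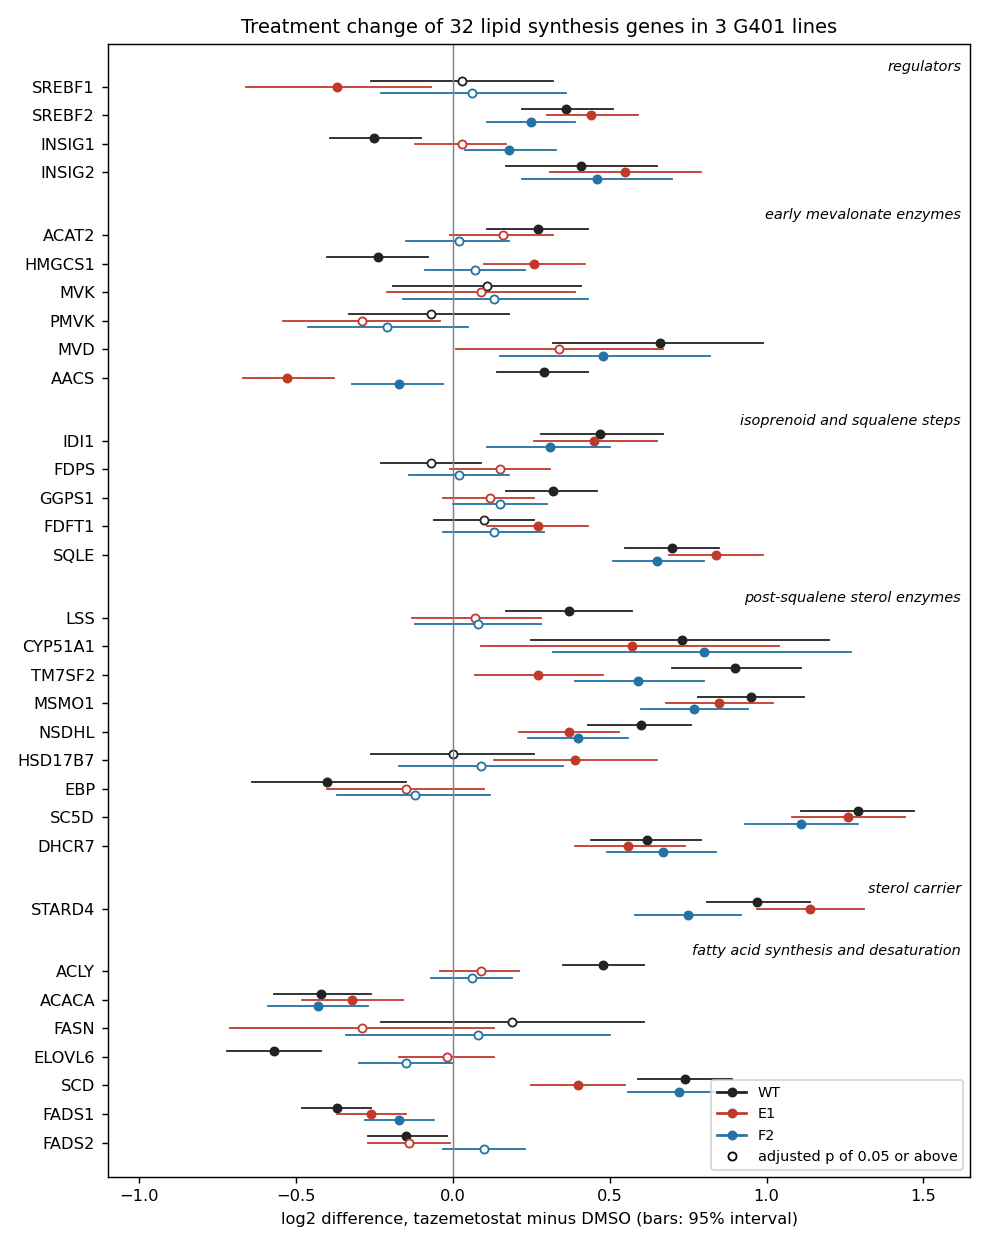
Log2 difference between tazemetostat and DMSO (x axis, on the log2(normalised count + 1) scale) for the 32 genes in order of role, in WT (black), E1 (red) and F2 (blue), with 95% intervals. Filled points have an adjusted p under 0.05: SC5D reached 1.29, 1.26 and 1.11, and AACS lay above 0 in WT and below 0 in both clones.

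Among the regulators, SREBF2 rose in each line. In WT it read 7802, 7837 and 7657 normalised counts in DMSO and 10158, 9975 and 9816 under tazemetostat. E1 went from 7814, 7179 and 6236 to 9864, 9205 and 9675, and F2 from 8091, 8821 and 8338 to 10508, 9926 and 9621. Treated libraries lay above all untreated ones of their line. The log2 changes were 0.36 ± 0.07 (SE, adjusted p = 0.00014) in WT, 0.44 ± 0.07 (2.6e-05) in E1 and 0.25 ± 0.07 (0.0046) in F2. With upper quartile scaling the F2 change was 0.06 and its adjusted p 0.39.

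SREBF1 did not follow SREBF2. Its WT libraries read 5064, 5011 and 5216 in DMSO and 4923, 5167 and 5544 with drug. E1 had 6189, 6027 and 3919 in DMSO, the last being the replicate that stood apart, and 4811, 3569 and 3963 with drug. F2 had 4832, 6021 and 5871, then 6286, 5793 and 5359. Groups overlapped in every line. The log2 change was 0.03 ± 0.14 in WT (adjusted p = 0.86) and 0.06 ± 0.14 in F2 (0.73). In E1 it was -0.37 ± 0.14 and passed the test narrowly (0.038). The call was lost without filter on low values (0.062), with only the E1 groups fitted (0.16), and without E1 DMSO replicate 1 (-0.25, 0.19) or 2 (-0.27, 0.16) or E1 tazemetostat replicate 2 (-0.27, 0.17) or 3 (-0.35, 0.10). Without E1 DMSO replicate 3 the value was -0.58 (0.00019).

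The INSIG genes encode the proteins that keep SREBP inactive, and INSIG1 is itself a target of SREBP. INSIG2 rose in every line, from 433, 415 and 377 to 539, 591 and 498 in WT. E1 moved from 360, 340 and 454 to 498, 609 and 572, and F2 from 433, 354 and 377 to 556, 531 and 514. No treated library overlapped an untreated one of its line. Its log2 changes were 0.41 ± 0.11, 0.55 ± 0.11 and 0.46 ± 0.11 (adjusted p = 0.0043, 0.00058 and 0.0021). With upper quartile scaling the adjusted p was 0.079 in WT and 0.062 in F2.

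INSIG1 moved differently by line. WT fell from 1557, 1469 and 1394 to 1235, 1317 and 1169, a log2 change of -0.25 ± 0.07 (adjusted p = 0.0044). E1 read 1308, 1412 and 1449 in DMSO and 1339, 1460 and 1450 with drug, which overlapped (0.03 ± 0.07, adjusted p = 0.78). F2 rose from 1435, 1421 and 1288 to 1608, 1482 and 1607 (0.18 ± 0.07, adjusted p = 0.036). The F2 rise was lost with upper quartile scaling, where the value was -0.01 (adjusted p = 0.95). Without filter on low values its adjusted p was 0.064. The 14 rises in F2 became 13 without F2 DMSO replicate 1 or 3 or F2 tazemetostat replicate 1 or 3. Whether INSIG1 was the rise lost is not given here, so its call may rest on single libraries.

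Of the 6 early mevalonate enzymes, 3 rose and 1 fell in WT, and 1 rose and 1 fell in each clone. Over all tested genes 34.8%, 27.1% and 29% rose, and 29.4%, 19.7% and 23.2% fell, so both counts of each clone are below these shares. The median of the group was 0.19, 0.12 and 0.04 on the log2 scale, beside 0.03, 0.02 and 0.02 over all tested genes. HMGCS1, which makes HMG-CoA, fell in WT and rose in E1. Its WT libraries read 5591, 5536 and 4946 in DMSO and 4536, 4931 and 4122 with drug (log2 -0.24 ± 0.08, adjusted p = 0.0093). The E1 libraries read 4567, 4618 and 4940, then 5133, 6223 and 5617 (0.26 ± 0.08, adjusted p = 0.0086). F2 had 5056, 4895 and 4580, then 5050, 5069 and 5108, which overlapped (0.07 ± 0.08, adjusted p = 0.48). The WT fall had an adjusted p of 0.063 without WT tazemetostat replicate 3, and the E1 rise one of 0.060 without E1 tazemetostat replicate 2 and 0.29 with upper quartile scaling.

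AACS, which activates acetoacetate for lipid synthesis, rose in WT and fell in both clones. WT moved from 2113, 2083 and 2009 to 2530, 2441 and 2611 (log2 0.29 ± 0.07, adjusted p = 0.0013). E1 moved from 2259, 2259 and 1889 to 1562, 1471 and 1404 (-0.53 ± 0.07, adjusted p = 3.7e-06). F2 moved from 1863, 1743 and 1687 to 1585, 1591 and 1524 (-0.17 ± 0.07, adjusted p = 0.046). In each line the groups did not overlap. The WT rise was not called with scaling to the same total (adjusted p = 0.085) or to the upper quartile (0.083), and the F2 fall lost its call without filter on low values (0.083) and without any 1 of 5 of the 6 F2 libraries (0.074 to 0.18).

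MVD, which decarboxylates mevalonate diphosphate, rose in WT and F2. The WT libraries went from 808, 718 and 768 to 1140, 1283 and 1195 (log2 0.66 ± 0.16, adjusted p = 0.0014). F2 went from 722, 966 and 815 to 1191, 1155 and 1128 (0.48 ± 0.16, adjusted p = 0.016). E1 read 814, 1014 and 550, then 1124, 846 and 970, which overlapped (0.34 ± 0.16, adjusted p = 0.089). Leaving out E1 DMSO replicate 3 gave 0.10 (0.53), and leaving out replicate 2 gave 0.54 (0.0053).

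ACAT2, the cytosolic thiolase that joins acetyl-CoA units, rose in WT from 2266, 2113 and 1948 to 2695, 2563 and 2365 (log2 0.27 ± 0.08, adjusted p = 0.0054). With scaling to the same total that rise was 0.12 (adjusted p = 0.13). E1 read 2848, 3147 and 3145, then 3213, 3758 and 3231, and F2 read 2172, 2040 and 1876, then 2054, 2017 and 2076. Neither clone passed the test (adjusted p = 0.11 and 0.88), and every E1 library read above every WT and F2 library of its condition. The difference in the ACAT2 change between lines did not pass. The mevalonate kinases MVK and PMVK did not pass in any line. MVK changed by 0.11, 0.09 and 0.13 and PMVK by -0.07, -0.29 and -0.21 on the log2 scale.

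Of the 5 isoprenoid and squalene enzymes, 3 rose in WT and in E1 and 2 did so in F2, while none fell. Over all tested genes 34.8%, 27.1% and 29% rose, and 29.4%, 19.7% and 23.2% fell. SQLE, the epoxidase that oxidises squalene, rose most. WT went from 2651, 2485 and 2414 to 4254, 4289 and 3729, E1 from 2228, 2184 and 2312 to 3686, 4315 and 4056, and F2 from 2632, 2479 and 2308 to 3842, 3857 and 3950. Every treated library was above every untreated one. The log2 changes were 0.70 ± 0.07 (adjusted p = 6.1e-08), 0.84 ± 0.07 (6.6e-09) and 0.65 ± 0.07 (2e-07).

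IDI1, which isomerises isopentenyl diphosphate, rose by 0.47 ± 0.09, 0.45 ± 0.09 and 0.31 ± 0.09 (adjusted p = 0.00022, 0.0005 and 0.0096). Its WT libraries read 3526, 3258 and 3033, then 4644, 4951 and 4053. E1 read 3468, 3550 and 3979, then 4348, 5601 and 5180, and F2 read 3286, 3049 and 2857, then 3845, 3646 and 3871. The groups of each line were apart, but under upper quartile scaling the F2 rise was 0.12 (adjusted p = 0.32). GGPS1, which makes geranylgeranyl diphosphate, rose in WT (0.32 ± 0.07, adjusted p = 0.00068) and measured 0.12 and 0.15 in the clones, and the difference between lines did not pass. FDFT1, the squalene synthase, passed in E1 (0.27 ± 0.08, adjusted p = 0.0065), and for it too the difference between lines did not pass. FDPS passed in no line (-0.07, 0.15 and 0.02).

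The 9 post-squalene enzymes turn squalene epoxide into cholesterol, and 7 of them rose in WT and in E1 and 6 in F2. The median of their log2 changes was 0.62, 0.39 and 0.59, beside 0.32, 0.27 and 0.15 for the isoprenoid and squalene enzymes. SC5D, a sterol desaturase near the end of the route, had the largest rise of the 32 genes in every line. Its WT libraries went from 1411, 1343 and 1379 to 3515, 3532 and 3062. E1 went from 1281, 1362 and 1543 to 2981, 3561 and 3482, and F2 from 1321, 1208 and 1108 to 2707, 2472 and 2671. Every treated library read above every untreated one. The rise was 2.44-fold in WT (log2 1.29 ± 0.09, adjusted p = 2e-10), 2.39-fold in E1 (1.26 ± 0.09, 3.7e-10) and 2.16-fold in F2 (1.11 ± 0.09, 2e-09). Its promoter above held 1 CCAAT box and 1 CACGTG.

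MSMO1, an oxidase in the removal of sterol methyl groups, rose 1.93-fold in WT, from 2924, 2762 and 2576 to 5562, 5550 and 4832. E1 rose 1.80-fold, from 2557, 3012 and 2715 to 4448, 5228 and 5239. F2 rose 1.71-fold, from 2248, 2174 and 1991 to 3708, 3648 and 3569. No library of the treated groups overlapped the untreated ones (adjusted p = 6.3e-09, 4.4e-08 and 1.5e-07). NSDHL, which acts in the same removal, rose by 0.60 ± 0.08, 0.37 ± 0.08 and 0.40 ± 0.08 on the log2 scale. HSD17B7, also of that removal, passed in E1 with 0.39 ± 0.12 (adjusted p = 0.014), and its WT value was 0.00 ± 0.12. The difference between lines did not pass for HSD17B7.

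TM7SF2, a sterol reductase, rose from 672, 658 and 730 to 1235, 1272 and 1342 in WT. It rose from 686, 783 and 717 to 1182, 1147 and 980 in F2. In E1 it read 605, 632 and 488 in DMSO and 712, 638 and 725 with drug. The log2 changes were 0.90 ± 0.10 (adjusted p = 1.7e-07), 0.59 ± 0.10 (4.3e-05) and, in E1, 0.27 ± 0.10 (0.028). Without E1 DMSO replicate 3 the E1 change was 0.16 (0.15), and with scaling to the same total 0.21 (0.10).

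DHCR7, the reductase that completes cholesterol, rose by 0.62 ± 0.08, 0.56 ± 0.08 and 0.67 ± 0.08. CYP51A1, the lanosterol demethylase, rose by 0.73 ± 0.23, 0.57 ± 0.23 and 0.80 ± 0.23, from few counts (29.2 to 111 in all 18 libraries). In E1 its adjusted p of 0.048 was 0.30 without E1 DMSO replicate 3, where the change was 0.25. LSS, which closes the sterol rings, rose in WT by 0.37 ± 0.10 (adjusted p = 0.0024) and measured 0.07 and 0.08 in E1 and F2. EBP, a sterol isomerase, fell in WT by 0.40 on the log2 scale (SE 0.12, adjusted p = 0.0068) and was the only post-squalene enzyme that fell in WT. Its E1 and F2 values were -0.15 and -0.12, and with upper quartile scaling they passed as falls (-0.30 and -0.31). With the scaling as deposited and all libraries kept, no difference between lines passed for LSS or EBP.

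STARD4, a soluble carrier that moves sterol between membranes, rose in each line. WT went from 1888, 1725 and 1679 to 3722, 3448 and 3228, E1 from 1737, 1556 and 1962 to 3590, 4050 and 3925, and F2 from 1650, 1539 and 1480 to 2602, 2595 and 2650. The groups did not overlap in any line. The rise was 1.96-fold, 2.21-fold and 1.68-fold (adjusted p = 3.9e-09, 5.2e-10 and 1.9e-07). Its printed promoter held 2 CCAAT copies and no other marked motif.

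**Figure D2:**
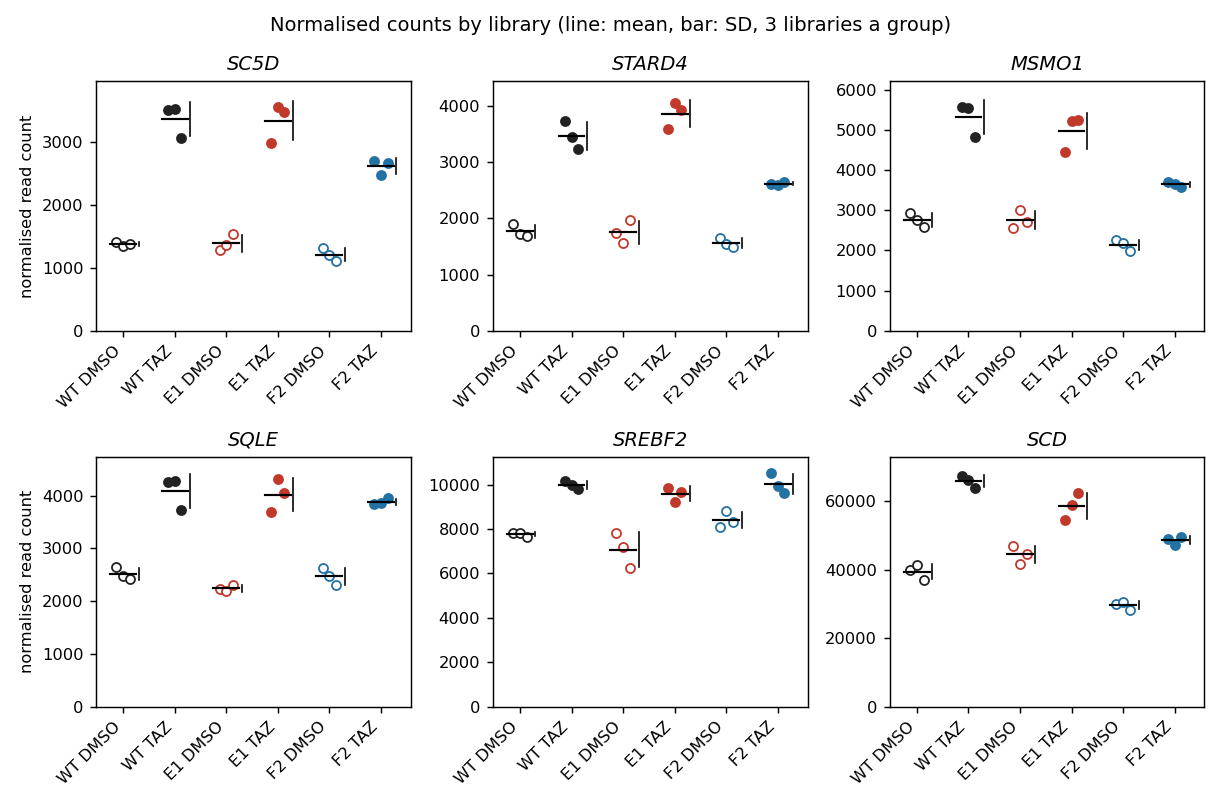
Normalised read count (y axis, from 0) of 6 genes that rose in all 3 lines, for each of the 18 libraries by group (x axis). Open points are DMSO and filled points tazemetostat, lines are group means and bars SD (n = 3): in each panel every treated library lies above the untreated libraries of its own line.

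Fatty acid genes were divided. In WT 2 of 7 rose and 4 fell, and in each clone 1 rose and 2 fell. Over all tested genes 34.8%, 27.1% and 29% rose, and 29.4%, 19.7% and 23.2% fell. The counts that rose are below these shares in each line and the counts that fell are above them, a comparison with no test. SCD rose in all lines, from 40022, 41303 and 36925 to 67422, 66182 and 63966 in WT. E1 went from 46926, 41767 and 44731 to 54636, 58885 and 62376, and F2 from 30117, 30552 and 28243 to 49073, 47276 and 49558. Treated and untreated libraries of a line did not overlap. The log2 changes were 0.74 ± 0.07 (adjusted p = 3.9e-08), 0.40 ± 0.07 (0.00014) and 0.72 ± 0.07 (8.3e-08).

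ACACA, the carboxylase that makes malonyl-CoA, fell in every line by 0.42, 0.32 and 0.43 on the log2 scale (SE 0.08 in each). FADS1, a desaturase of polyunsaturated fatty acids, fell by 0.37, 0.26 and 0.17 (SE 0.05). ELOVL6, which elongates palmitate, fell in WT from 3400, 3373 and 3067 to 2318, 2199 and 2099 (log2 -0.57 ± 0.07, adjusted p = 1.2e-06). E1 read 2358, 2389 and 2669, then 2184, 2615 and 2547 (-0.02 ± 0.07), and F2 read 3117, 3035 and 2887, then 2686, 2707 and 2724 (-0.15 ± 0.07, adjusted p = 0.079). The F2 groups did not overlap although the test was not passed.

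ACLY rose in WT from a mean of 14706 ± 621 to 20490 ± 847 (SD, n = 3), a log2 change of 0.48 ± 0.06 (adjusted p = 1.3e-06). It measured 13348 ± 746 and 14178 ± 481 in E1, and 12276 ± 560 and 12788 ± 348 in F2, and passed in neither clone (0.09 and 0.06). FADS2 fell in WT by 0.15 (SE 0.06, adjusted p = 0.045) and did not pass in E1 (-0.14) or F2 (0.10). That WT fall had an adjusted p of 0.088 without filter on low values, and between 0.059 and 0.11 without any 1 of the 6 WT libraries.

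FASN, the synthase that makes palmitate, passed in no line (0.19, -0.29 and 0.08, each with an SE of 0.20). Its E1 DMSO libraries read 16068, 15311 and 7727, and its treated E1 libraries 12035, 8700 and 10006. Without E1 DMSO replicate 3 the E1 change was -0.63 with an adjusted p of 0.0006. That library was also the lowest of E1 DMSO for SREBF1, SREBF2, MVK, PMVK, MVD, AACS, LSS, CYP51A1, TM7SF2, EBP, DHCR7, ACLY and FADS2. It was the highest for INSIG1, INSIG2, HMGCS1, IDI1, GGPS1, SQLE, SC5D, STARD4 and ELOVL6. The part of this library in the E1 results beyond the values given without it was not tested.

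**Figure D3:**
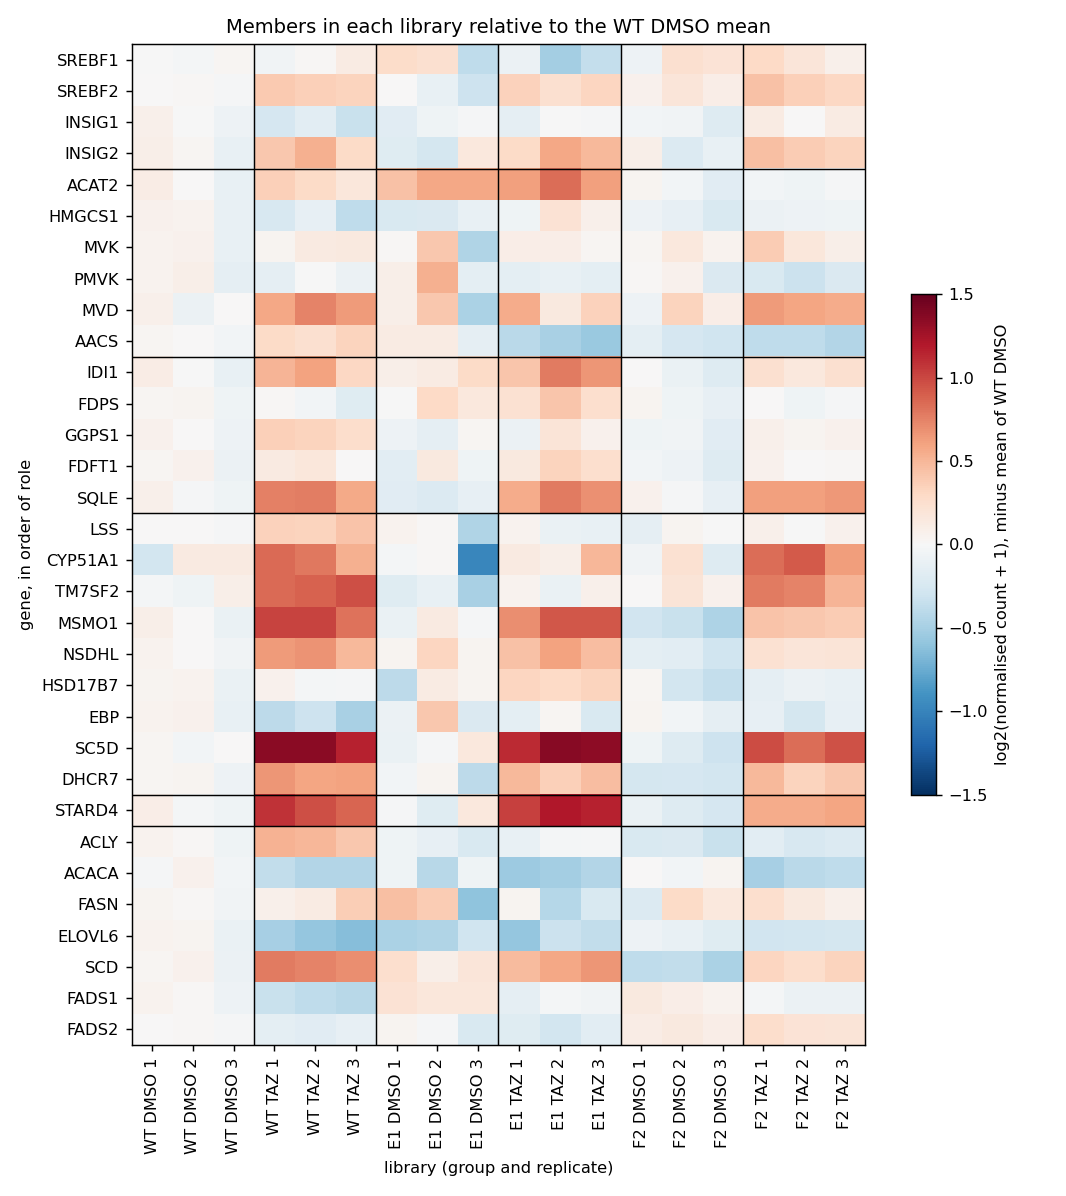
Each gene (rows, by role) in each of the 18 libraries (columns, by group and replicate), coloured by log2(normalised count + 1) minus the mean of WT DMSO, red above and blue below, limited to ± 1.5. By group mean, SC5D is the darkest red row under tazemetostat in each line. STARD4 follows it in WT and E1, whereas in F2 rows such as CYP51A1 are darker than STARD4. The E1 DMSO 3 column differs from E1 DMSO 1 and 2 in rows such as FASN and CYP51A1.

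The proliferation genes measured beside the pathway moved most in WT. All 8 (MKI67, TOP2A, CCNA2, CCNB1, AURKB, PCNA, MCM2 and RRM2) fell there, 2 fell in E1 and 4 in F2. Of all tested genes 29.4%, 19.7% and 23.2% fell. CCNA2, a cyclin of S phase and G2, fell by 1.95, 0.25 and 0.38 on the log2 scale. TOP2A, a topoisomerase of dividing cells, measured -1.66, -0.11 and -0.26. The part of this difference in the lipid genes was not tested.

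Clones were compared with WT in DMSO to ask how the RB1-null lines differed without drug. Each is a single clone, so RB1 loss and differences between clones cannot be told apart. Few of the 32 genes passed. In E1, 2 were higher and 1 lower, against 11.4% and 11.7% of all tested genes, and in F2 none was higher and 5 were lower, against 8.1% and 12.1%. E1 had more ACAT2 (log2 0.53 ± 0.08, adjusted p = 4.7e-05) and FADS1 (0.18 ± 0.05, 0.015) and less ELOVL6 (-0.41 ± 0.07, 0.00032). F2 had less SCD (-0.41 ± 0.07, 0.00045), MSMO1 (-0.37 ± 0.08, 0.0033), ACLY (-0.26 ± 0.06, 0.0047), DHCR7 (-0.26 ± 0.08, 0.032) and AACS (-0.23 ± 0.07, 0.025). Both comparisons share the WT DMSO libraries. Scaling to the same total turned the split to 2 higher and 6 lower in E1 and 1 higher and 5 lower in F2. The 3 calls in E1 became 6 without E1 DMSO replicate 1 or 3 and 5 without replicate 2. The 5 calls in F2 became 3 without WT DMSO replicate 1 or 2 or F2 DMSO replicate 2 or 3, when AACS and DHCR7 were lost. With the replicate number as a block, NSDHL was also lower in F2 (-0.20, adjusted p = 0.047).

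In DMSO more of these genes differed between E1 and F2 than between either clone and WT. The same held over all tested genes. E1 was above F2 in 6 of the 32 and below in 4. Both counts are below the shares of all tested genes, 19.4% and 17.7%. ACAT2 was 1.5-fold higher in E1 than in F2 (log2 0.59 ± 0.08, adjusted p = 9.3e-06) and SCD likewise (0.58 ± 0.07, 4e-06). MSMO1 (0.37), NSDHL (0.34), AACS (0.27) and IDI1 (0.26) were also higher in E1. TM7SF2 (-0.35), ELOVL6 (-0.29), SREBF2 (-0.26) and FADS2 (-0.19) were lower. FASN measured 13035 ± 4612 in E1 and 12535 ± 2103 in F2. Without E1 DMSO replicate 3, FASN was higher in E1 than in F2 by 0.34 (adjusted p = 0.049). With only these groups in the fit, 4 of the 10 calls were made.

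The response difference, the log2 change with drug in a clone minus that in WT, asks whether the lines answered differently. In E1 it was higher for 3 genes and lower for 4, against 17.2% and 18.2% of tested genes. In F2 it was higher for 5 and lower for 2, against 13.7% and 13.2%. Both differences use the same WT libraries. With scaling to the same total the split was 8 to 4 in E1, and with the upper quartile it was 2 to 2 in F2. Without E1 DMSO replicate 3 the 7 differences between E1 and WT became 11, with 3 higher and 8 lower, and FASN (-0.82), SREBF1 (-0.61), MVD (-0.56) and LSS (-0.46) were then among them. Without E1 DMSO replicate 2 there were also 11, with 7 higher and 4 lower.

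AACS had the largest difference, -0.81 ± 0.10 in E1 (95% interval -1.02 to -0.61, adjusted p = 4.2e-06) and -0.46 ± 0.10 in F2 (-0.67 to -0.25, 0.0018). It rose in WT and fell in each clone. TM7SF2 responded less in E1 than in WT by 0.63 on the log2 scale (interval of the difference -0.92 to -0.34, adjusted p = 0.0016), and its F2 difference did not pass. For ELOVL6 the difference was 0.56 ± 0.10 in E1 (adjusted p = 0.00032) and 0.42 ± 0.10 in F2 (0.0048), with the fall in WT given above. HMGCS1 differed by 0.51 ± 0.11 (0.0013) and 0.31 ± 0.11 (0.039).

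INSIG1 differed by 0.28 ± 0.10 in E1 (adjusted p = 0.036) and 0.43 ± 0.10 in F2 (0.0031). The E1 difference lost its call without filter on low values (0.071), with only the groups of the contrast fitted (0.062), and without WT DMSO replicate 1 or 2, WT tazemetostat replicate 1 or 3, E1 DMSO replicate 1 or E1 tazemetostat replicate 2 or 3 (0.061 to 0.096). ACLY differed by -0.39 ± 0.09 (0.0016) and -0.42 ± 0.09 (0.0012). SCD rose less in E1 than in WT by 0.34 (difference -0.34 ± 0.10, adjusted p = 0.013). FADS1 (0.20, adjusted p = 0.049) and FADS2 (0.25, 0.042) differed in F2. The F2 differences of HMGCS1, FADS1 and FADS2 were the ones lost when no filter was used, with upper quartile scaling, or without WT DMSO replicate 1 or 2, WT tazemetostat replicate 1 or 3, F2 DMSO replicate 2 or 3 or any F2 tazemetostat library, when 4 differences were left.

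Between the clones, AACS (-0.36 ± 0.10, adjusted p = 0.019) and SCD (-0.32 ± 0.10, 0.043) responded less or fell more in E1 than in F2. STARD4 responded more in E1 (0.39 ± 0.11, 0.024). These 1 higher and 2 lower stand beside 6.16% and 8.6% of tested genes. With the upper quartile the split was 1 to 1. The count fell to 1 without E1 DMSO replicate 1, E1 tazemetostat replicate 2 or 3, F2 DMSO replicate 1 or F2 tazemetostat replicate 1 or 2, and was 8 without E1 DMSO replicate 3. For SC5D, SQLE and MSMO1, picked after their values were seen, no response difference passed. The 95% interval of the SC5D difference was -0.28 to 0.23 for E1 minus WT and -0.43 to 0.08 for F2 minus WT.

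**Figure D4:**
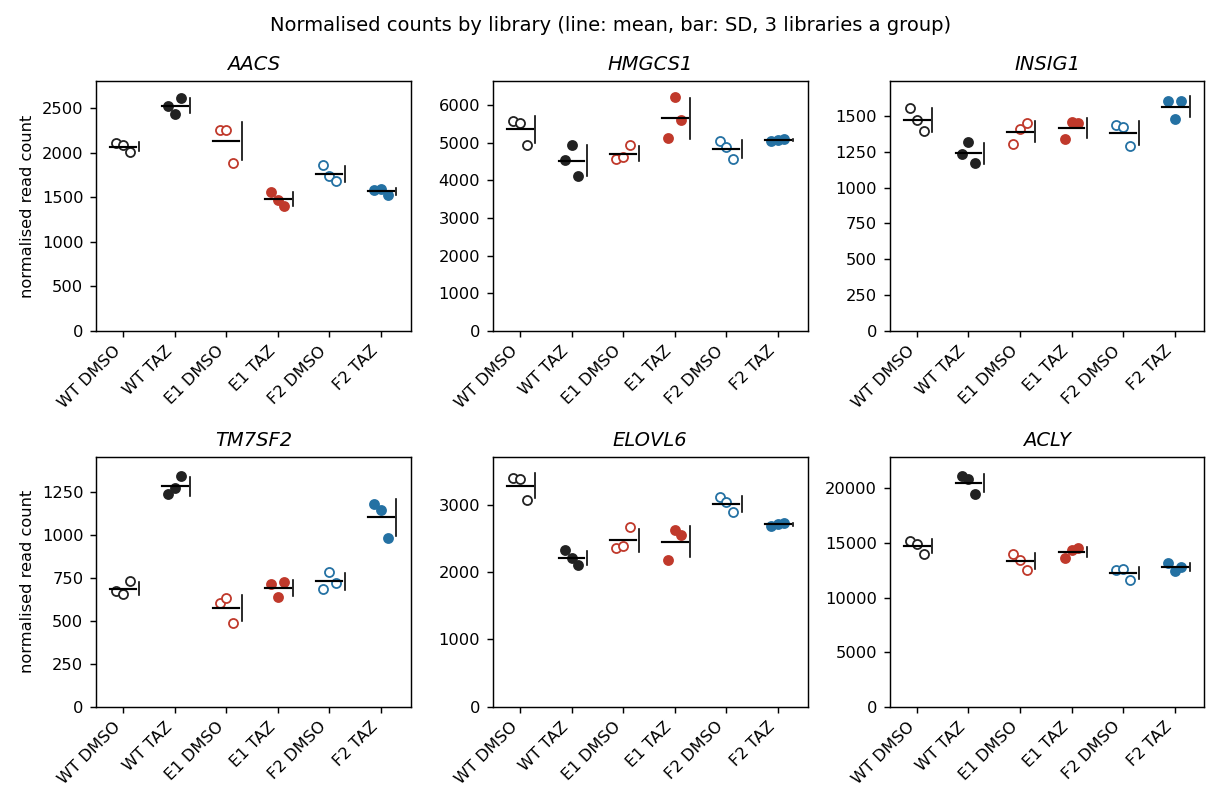
Normalised read count (y axis, from 0) in each of the 18 libraries by group (x axis) for 6 genes whose response differed between a clone and WT, with DMSO open, tazemetostat filled, lines at means and bars for SD (n = 3). AACS rises in WT and falls in both clones, and ACLY rises from 14706 to 20490 in WT while the clone groups lie between 12276 and 14178.

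Under tazemetostat the lines were compared directly. E1 was higher than WT in 6 of the genes and lower in 6, against 25% and 26.9% of tested genes, and F2 was higher in 4 and lower in 12, against 25.1% and 27.9%. Both comparisons share the treated WT libraries. TM7SF2 was 1.86-fold lower in E1 (adjusted p = 5.2e-07), and AACS was 1.71-fold lower in E1 (4.1e-08) and 1.61-fold lower in F2 (1.6e-07). ACLY was 1.44-fold lower in E1 and 1.60-fold lower in F2. F2 was below WT in the sterol genes MSMO1 (1.46-fold), NSDHL (1.32-fold), STARD4 (1.32-fold), SC5D (1.29-fold), LSS (1.26-fold) and DHCR7 (1.16-fold). FADS1 was 1.23-fold higher in both clones, and ACAT2 was higher in E1 (log2 0.42) and lower in F2 (-0.31). Scaling to the same total, which moved the median of all genes by 0.15 in F2 against WT, gave 11 higher and 5 lower in E1 and 7 higher and 8 lower in F2.

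Other genes of the pathway were read from 5 further lists, whose counts stand beside 34.8%, 27.1% and 29% of all tested genes that rose and 29.4%, 19.7% and 23.2% that fell. Of 8 genes of SREBP processing and sterol sensing, 4 rose in WT, 2 rose and 2 fell in E1, and 3 rose and 1 fell in F2. The E1 counts are near these shares, and the median was 0.16, 0.09 and 0.12. MBTPS1, the first SREBP protease, rose by 0.45, 0.19 and 0.18 on the log2 scale. Of 13 tested genes of sterol uptake, transport and efflux, 8 rose and 3 fell in WT, 7 rose and 3 fell in E1, and 7 rose and 2 fell in F2. The median over that list was 0.97, 0.49 and 0.35 on the log2 scale.

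The sterol efflux pumps ABCA1 and ABCG1 had the largest rises of that transport list in WT. ABCA1 had at most 2 reads in any untreated library. It read 703 to 758 normalised counts in treated WT libraries, 488 to 528 in E1 and 1511 to 1788 in F2. Taking 3 reads per library as the floor, that is at least 263-fold, 181-fold and 506-fold higher. ABCG1 had 0 reads in every untreated library and treated means of 51.4 ± 4.18, 9.55 ± 0.83 and 47.4 ± 3.51 (SD, n = 3). It was at least 18.6-fold, 3.37-fold and 14.5-fold higher.

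Of 11 genes of the isoprenoid branches, 3 rose and 2 fell in WT, 4 rose and 1 fell in E1, and 4 rose and 2 fell in F2. In WT both counts are below the shares over all tested genes, 34.8% and 29.4%, and the median was -0.06, 0.13 and 0.10. DOLK, which phosphorylates dolichol, rose by 0.92, 0.57 and 0.52. COQ2, of ubiquinone synthesis, fell by 0.76 in WT and 0.32 in E1 and measured -0.09 in F2. Of 20 tested genes that activate, elongate or desaturate fatty acids, 11 rose and 3 fell in WT, 8 rose and 4 fell in E1, and 10 rose and 4 fell in F2. The acyl-CoA synthetases ACSL4 and ACSL5 had the largest changes of that list in WT. ACSL4 went from 50.2 ± 3.64 to 1164 ± 89.9 in WT, from 6.66 ± 1.90 to 1683 ± 214 in E1 and from 11.2 ± 3.03 to 1322 ± 74.1 in F2. ACSL5 had at most 1 read in untreated libraries and was at least 59.4-fold, 36.0-fold and 118-fold higher with drug.

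In fatty acid oxidation more genes fell than rose. Of 19 tested genes, 3 rose and 10 fell in WT, 1 rose and 16 fell in E1, and 1 rose and 14 fell in F2, with medians of -0.27, -0.49 and -0.58. CPT2, which regenerates acyl-CoA inside mitochondria, fell by 1.14, 1.27 and 1.17 on the log2 scale. DECR1, an auxiliary reductase for unsaturated acyl-CoA, fell by 1.14, 0.79 and 0.97.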

How the data were processed

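Poly(A) RNA of 18 G401 samples was sequenced with a stranded kit and paired reads, per the labels' protocols. The authors deposited 1 table of a normalised signal, in which each sample's reads per gene had been divided by that sample's DESeq2 size factor. Trim Galore 0.4.4, STAR 2.6.0a, HTSeq, DESeq2 and build hg19 are named in the submitters' processing notes; the annotation and whether counting used strand are not given in the sources used here. Multiplying by the size factor gave whole reads for 100% of values (tolerance 1e-06).

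A mean of 10 or more across all libraries was required, a filter passed by 16154 genes and by all 32 members. The test was that of limma 3.58.1 (R 4.3.3) applied to log2(value + 1), a scale that understates changes of low genes, with 1 fit of 6 group means, eBayes with trend and Benjamini-Hochberg adjustment within each of 11 contrasts. A gene was called at an adjusted p under 0.05. The procedure was tested on simulated counts with 200 of 16154 genes changed, far fewer than were called with drug in WT. For the drug in WT, 56.5% of changes of log2 0.5 and 88.5% of log2 1 were recovered. For E1 minus WT these were 18.5% and 70%, so in that setting most response differences of log2 0.5 were missed. Between 2.8% and 5.1% of calls were false. Alternatives were other pseudocounts (0.5 and 5), filters (50, none) and scalings, only the groups of a contrast, the replicate block, edgeR 4.0.16 and DESeq2 1.42.0 on the recovered reads, and each library left out in turn.

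The members, roles and lists were chosen with earlier results of these data known. By the rule for named genes, library values are given for SREBF1, SREBF2, INSIG1 and HMGCS1, for the 2 members of each role with the largest called change with drug in any line, for the 3 with the largest called response difference from WT and for the 3 with the largest called clone difference in DMSO. Of each further list, the 2 genes with the largest called WT change are named, except where a gene is not reported here. Replicate numbers are shared between groups. Deviations of same-numbered samples from their group means were correlated; every pair was over 0.1 in 1 contrast, F2 against WT in DMSO (0.182, 0.108 and 0.375), a pairing that comes from the data and not from the labels. Floors and recovered counts describe counting error alone; the files do not separate PCR copies.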

Additional observations from a re-analysis of the deposited data

Results flagged for a closer look

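The change with tazemetostat differed between lines, by the test of the difference itself, in 17 results over 10 of the 32 genes (limma, adjusted p under 0.05). Among all tested genes, 17.2% were higher and 18.2% lower for E1 minus WT, 13.7% and 13.2% for F2 minus WT, and 6.16% and 8.6% for E1 minus F2. Of the 32 members, in the same order, 3 and 4, 5 and 2, and 1 and 2 passed. Only the 5 higher for F2 minus WT were above their share, and the other counts were below theirs. For E1 minus WT the log2 differences were 0.28 for INSIG1, 0.51 for HMGCS1, -0.81 for AACS, -0.63 for TM7SF2, -0.39 for ACLY, 0.56 for ELOVL6 and -0.34 for SCD. For F2 minus WT they were 0.43 for INSIG1, 0.31 for HMGCS1, -0.46 for AACS, -0.42 for ACLY, 0.42 for ELOVL6, 0.20 for FADS1 and 0.25 for FADS2. Both sets use the WT libraries. For E1 minus F2 the log2 differences were -0.36 for AACS, 0.39 for STARD4 and -0.32 for SCD.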

How the results depend on the processing

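Of 352 gene results (32 genes in 11 contrasts), edgeR on recovered reads kept the call and direction of 344, DESeq2 of 345 and the replicate block of 346. edgeR called 5563 higher and 4897 lower of all genes in WT with drug. With the replicate block, 20 members passed in E1 with drug in place of 19, 6 in F2 against WT in DMSO in place of 5, 11 in E1 against F2 in DMSO in place of 10 and 2 in E1 minus F2 in place of 3, and NSDHL was gained in the paired contrast F2 against WT in DMSO. Without filter, 3 members passed in F2 against WT in DMSO and 4 in F2 minus WT. Scaling to the same total gave 8 in E1 against WT in DMSO and 12 in E1 minus WT, and the upper quartile 4 in F2 minus WT. When a fit held no other groups than those compared, 12 passed in E1 with drug, 4 in E1 against F2 in DMSO and 1 in E1 minus F2. Leaving out each library in turn gave 23 to 24 members for the drug in WT, 16 to 21 in E1 and 15 to 16 in F2, and 9 to 13 and 14 to 17 for E1 and F2 against WT under drug. In DMSO the range was 2 to 6 for E1 against WT, 3 to 5 for F2 against WT and 8 to 13 for E1 against F2. For response differences it was 6 to 11 for E1 minus WT, 4 to 6 for F2 minus WT and 1 to 8 for E1 minus F2. Direction was reversed for INSIG1 in F2 with drug under upper quartile scaling (-0.01). The difference of FASN between E1 and F2 in DMSO ranged from -0.19 to 0.34 over the libraries left out, with the upper value without E1 DMSO replicate 3 (adjusted p = 0.049). The causes of these changes were not tested. Where a group was left with 2 libraries, the fit took their spread from all groups.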

Other observations

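Of the wider lists, response differences are given here for ABCG1, ABCA1, ACSL4, COQ2 and DOLK. Those of MBTPS1, ACSL5, CPT2 and DECR1, also named above, are not given. ABCG1 rose less in E1 than in WT (log2 difference -2.31 ± 0.31, adjusted p = 1.6e-05), with 0 reads in every untreated library, so the size depends on the pseudocount. ABCA1 rose more in F2 than in WT (1.99 ± 0.41, adjusted p = 0.0014). Its untreated libraries held at most 2 reads, so this size depends on the pseudocount too. ACSL4, an acyl-CoA synthetase for polyunsaturated fatty acids, responded more in E1 (3.30 ± 0.26, adjusted p = 3e-08) and F2 (2.28 ± 0.26, adjusted p = 3.4e-06) than in WT. Its untreated level was 50.2 ± 3.64 normalised counts in WT against 6.66 ± 1.90 in E1 and 11.2 ± 3.03 in F2 (SD, n = 3). Untreated clone libraries held at most 8 reads of ACSL4 in E1 and 14 in F2, so these sizes also depend on the pseudocount. COQ2, of ubiquinone synthesis, fell in WT by 0.76 on the log2 scale and differed from that by 0.44 ± 0.11 in E1 (adjusted p = 0.0038) and 0.67 ± 0.11 in F2 (0.00012). DOLK, the dolichol kinase, rose less in E1 (-0.35 ± 0.11, adjusted p = 0.015) and F2 (-0.41 ± 0.11, 0.0082) than in WT. These genes are a part of each list, picked for their change in WT. The same WT libraries enter the response difference, so this choice can favour a smaller response in the clones.

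Of the 19 tested fatty acid oxidation genes, 2 were higher and none lower in E1 than in WT in DMSO, beside 11.4% and 11.7% of all tested genes. Under tazemetostat 4 were higher and 9 lower, beside 25% and 26.9%. In F2 the counts were 1 higher and 3 lower in DMSO, beside 8.1% and 12.1%, and 3 higher and 10 lower under tazemetostat, beside 25.1% and 27.9%. Their response difference was higher for 4 and lower for 6 in E1, beside 17.2% and 18.2%, and higher for 1 and lower for 6 in F2, beside 13.7% and 13.2%. The median response difference of the list was -0.18 for E1 and -0.21 for F2, against 0.01 over all tested genes in each, and both share the WT libraries.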
